A study of Drosophila melanogaster with 6 samples.

Results

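A set of 6 genes that divide the fly eye into a dorsal and a ventral field were followed by name through RNA sequencing of larval eye and antennal discs. They are the Iroquois complex genes mirror (mirr), araucan (ara) and caupolican (caup), the GATA factor gene pannier (pnr), and the forkhead genes sloppy paired 1 (slp1) and sloppy paired 2 (slp2). They were picked by name, without a threshold on any measured value but with earlier results of these data known. They make up 6 of the 17753 genes listed in each expression table. All 6 passed the filter on low counts, with 9901 genes tested in all. The groups were 3 eye disc libraries and 3 antennal disc libraries from Drosophila melanogaster larvae at the third instar, of genotype yw;+;+, so no group carried a transgene and both groups shared the yw background. Each library pooled 30 discs, cut apart by hand after dissection, and was made from polyadenylated RNA with a strand-preserving kit. The labels call the libraries biological replicates.

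In the larval eye disc, Wingless and Hedgehog signals act at the dorsal margin. There, pannier is known to act upstream of the Iroquois genes, homeobox factors that mark the dorsal field and restrict expression of the glycosyltransferase gene fringe. The sloppy paired genes are known from ventral eye tissue, where they keep Iroquois expression out of the ventral field. The line between the fields is where Notch is activated and from where growth of the eye disc is directed. The antennal disc, which is continuous with the eye disc, forms the antenna and adjoining head capsule. In bulk tissue, fewer cells of a type and less RNA per cell cannot be told apart, and neither field was sampled separately here.

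Marker genes were described in each tissue. Their lists were written with earlier results of these data known, so they are no independent check of the labels. By edgeR at an adjusted p under 0.05, 14.6% of all tested genes were called higher in eye disc and 11.7% higher in antennal disc. All 5 eye markers listed (eya, so, ey, gl and ato) were higher in eye disc, summing to 1079 to 1193 CPM (counts per-million of the scaled library) in eye disc and 138 to 166 CPM in antennal disc. All 5 antennal markers were higher in antennal disc, summing to 98.6 to 109 CPM in eye disc, against 519 to 637 CPM in antennal disc. The neuron markers (4 of 4 higher in eye disc) summed to 355 to 571 CPM in eye disc, against 60.0 to 67.1 CPM in antennal disc. Glia markers (3 of 4 higher in eye disc) summed to 469 to 672 CPM in eye disc, against 285 to 337 CPM in antennal disc. The 4 differed widely in their means. In eye disc against antennal disc, repo was at 42.8 against 4.47 CPM and moody at 33.7 against 1.83 CPM. The more abundant nrv2 was at 272 against 200 CPM, and Gs2, which was not called, at 199 against 98.0 CPM. Hemocyte markers (3 of 4 higher in eye disc) summed to 415 to 563 CPM in eye disc, against 220.0 to 299.9 CPM in antennal disc. The fourth, Hml, was called higher in eye disc by DESeq2 (adjusted p = 0.0499) and with the replicate block in edgeR (adjusted p = 0.00593). Muscle markers (2 of 4 higher in antennal disc) summed to 81.8 to 230.5 CPM in eye disc, against 292 to 340.4 CPM in antennal disc, and neither of 2 tracheal markers was called by edgeR over all 6 libraries (trh was called higher in eye disc by DESeq2, adjusted p = 0.0157, and by edgeR without eye disc replicate 1, adjusted p = 0.0116), at sums of 19.1 to 45.8 CPM in eye disc, against 11.0 to 18.4 CPM in antennal disc. The call of ato was lost without any 1 antennal disc library (edgeR adjusted p from 0.0601 to 0.0807). That of the hemocyte marker NimC1 was lost without antennal disc replicate 2 (adjusted p = 0.0586). The muscle marker Mhc lost its call without eye disc replicate 3 or any 1 antennal disc library (adjusted p from 0.0606 to 0.0712). No marker was at 0 in any library. Apart from trachea, each cell type had markers called different between the tissues by edgeR over all 6 libraries. The part of these cell types in the differences of the selector genes given next was not tested.

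Total estimated counts per library lay between 17583601 and 29093991, the lowest being eye disc replicate 2. That library also stood apart in composition, since its 10 highest genes held 34.3% of all TPM (transcripts per-million), against 9.47% to 10.7% in the other libraries. Counts of the 6 selector genes ranged from 543 to 3073 per library, far above 3 counts, which corresponds to 0.103 to 0.171 CPM in these libraries.

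All 6 selector genes were higher in eye disc, by folds from 1.24 for ara to 1.85 for pnr. Of all genes tested, 14.6% were called higher in eye disc and 11.7% higher in antennal disc (quasi-likelihood test of edgeR, at a Benjamini-Hochberg adjusted p under 0.05). For each of the 6 genes every eye disc library lay above every antennal disc library on the CPM scale. Of all tested genes, 23.4% showed that pattern. The median log2 fold change (eye disc over antennal disc) was 0.58 over the selector genes and 0.00 over all tested genes. Among the 1449 genes called higher in eye disc the median was 1.56, and 536 of them (37.0%) differed by less than 2-fold, as all 6 selector genes did. The antennal disc mean was between 54.1% (pnr) and 80.6% (ara) of the eye disc mean. For eye markers the same share was 8.53% for eya, 11.6% for so, 11.0% for ey and 4.50% for gl, but 77.6% for ato, a proneural gene that also acts in the antenna.

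**Figure D1:**
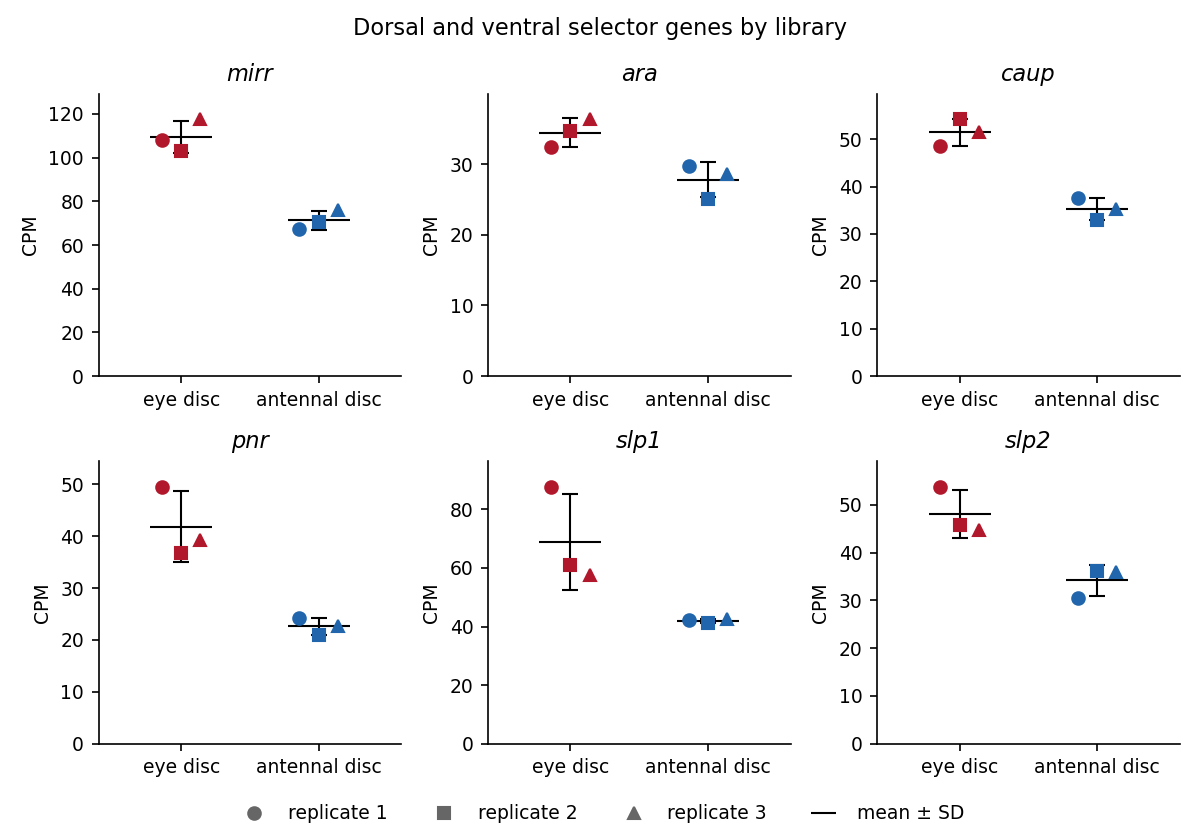
CPM (linear axis from 0, a separate scale for each gene) of the 6 selector genes in 3 eye disc libraries (red) and 3 antennal disc libraries (blue), with symbols for the replicate number and bars for the mean ± SD. Every eye disc point lies above every antennal disc point, by the narrowest margin for ara, while pnr, slp1 and slp2 are highest in eye disc replicate 1.

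The Iroquois genes lie on chromosome arm 3L, all on the plus strand, in the order ara, caup and mirr (dm6). Next to ara, caup begins 13.612 kb further on, whereas noncoding RNA genes lie between caup and mirr. The gene mirr (FBgn0014343, 3L, 12693639 to 12710249) encodes the homeobox factor whose loss is known to disturb the dorsoventral boundary of the eye. Its level was 108, 103 and 118 CPM in eye disc replicates 1, 2 and 3, against 67.3, 70.5 and 75.9 CPM in the antennal disc replicates. The lowest eye disc library, replicate 2, was well above the highest antennal disc library, replicate 3. Mean levels were 109.5 ± 7.33 CPM in eye disc, against 71.2 ± 4.32 CPM in antennal disc (SD, n = 3 each). The log2 fold change was 0.62 ± 0.07 (SE), with a 95% interval of 0.45 to 0.80 and an adjusted p of 0.00166 in the edgeR quasi-likelihood test.

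The gene caup (FBgn0015919, 3L, 12609631 to 12621798) encodes a homeobox factor closely related to the product of ara. It was at 48.6, 54.2 and 51.5 CPM in eye disc, against 37.6, 33.0 and 35.2 CPM in antennal disc. Eye disc replicate 1, the lowest of its group, stood above antennal disc replicate 1, the highest of its own. The means were 51.4 ± 2.79 CPM in eye disc, against 35.3 ± 2.30 CPM in antennal disc (SD, n = 3 each), a log2 fold change of 0.54 ± 0.08 (SE; 95% interval 0.36 to 0.72; edgeR adjusted p = 0.0033). The calls of mirr and caup held whichever single library was left out, with log2 fold changes of 0.56 to 0.67 and of 0.49 to 0.58.

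The gene ara (FBgn0015904, 3L, 12580672 to 12596018), the first of the complex along the chromosome, was at 32.3, 34.7 and 36.3 CPM in eye disc, against 29.8, 25.0 and 28.6 CPM in antennal disc. The groups were separate, but eye disc replicate 1 lay close above antennal disc replicate 1. Means were 34.5 ± 2.01 CPM in eye disc, against 27.8 ± 2.46 CPM in antennal disc (SD, n = 3 each). The log2 fold change was 0.31 ± 0.09 (SE; 95% interval 0.10 to 0.52) at an edgeR adjusted p of 0.0445, the weakest call of the 6. With the replicate number as a block the adjusted p became 0.0572 at a log2 fold change of 0.31. The call held without eye disc replicate 1 (adjusted p = 0.0496) and was lost without any other single library: 0.0841 without eye disc replicate 2, 0.120 without eye disc replicate 3, and 0.0583, 0.135 and 0.112 without antennal disc replicates 1, 2 and 3. The log2 fold change in these fits ranged from 0.23 to 0.35.

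The gene pnr (FBgn0003117, 3R, 16026079 to 16041796, plus strand) encodes a GATA zinc finger factor that acts early at the dorsal margin. It was at 49.6, 36.7 and 39.3 CPM in eye disc, against 24.3, 21.0 and 22.7 CPM in antennal disc. Eye disc replicate 1 was the highest, and all eye disc libraries stood clear of the antennal disc libraries, which lay close together. The means were 41.8 ± 6.81 CPM in eye disc, against 22.6 ± 1.62 CPM in antennal disc (SD, n = 3 each). The log2 fold change of 0.89 ± 0.13 (SE; 95% interval 0.58 to 1.19; edgeR adjusted p = 0.00375) was the largest of the 6 selector genes. The call held without any 1 library, at values from 0.74 to 0.98.

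The sloppy paired genes are intronless neighbours on chromosome arm 2L, both on the plus strand and 9.74 kb apart. The gene slp1 (FBgn0003430, 2L, 3825675 to 3827099) encodes a forkhead factor named for its role in embryonic segmentation. It was at 87.7, 61.1 and 57.7 CPM in eye disc, against 42.1, 41.3 and 42.6 CPM in antennal disc. Eye disc replicate 1 stood far above the other eye disc libraries, whereas the antennal disc libraries were nearly equal. The means were 68.8 ± 16.5 CPM in eye disc, against 42.0 ± 0.650 CPM in antennal disc (SD, n = 3 each). The log2 fold change was 0.71 ± 0.16 (SE; 95% interval 0.32 to 1.11; edgeR adjusted p = 0.0220). The call held without any 1 eye disc library but was lost without antennal disc replicate 1 (0.70, adjusted p = 0.0709), replicate 2 (0.69, adjusted p = 0.0837) or replicate 3 (0.72, adjusted p = 0.0821), although its value hardly moved.

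The gene slp2 (FBgn0004567, 2L, 3836840 to 3839185) encodes a forkhead factor that acts together with slp1. It was at 53.8, 45.8 and 44.7 CPM in eye disc, against 30.4, 36.1 and 36.0 CPM in antennal disc. Eye disc replicate 1 was again the highest, and antennal disc replicate 1 was the lowest of all 6 libraries. The means were 48.1 ± 4.96 CPM in eye disc, against 34.2 ± 3.24 CPM in antennal disc (SD, n = 3 each), a log2 fold change of 0.49 ± 0.11 (SE; 95% interval 0.24 to 0.75; edgeR adjusted p = 0.0167). The call was lost without antennal disc replicate 3 (0.53, adjusted p = 0.0525) and held without any other 1 library.

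Without eye disc replicate 2, the library that stood apart, 5 of the 6 selector genes were called higher in eye disc by edgeR, against 14.5% of all genes. The log2 fold changes were then 0.67 for mirr, 0.31 for ara, 0.51 for caup, 0.98 for pnr, 0.79 for slp1 and 0.53 for slp2. On the deposited TPM, mirr was at 15.2, 8.93 and 17.1 TPM in eye disc replicates 1, 2 and 3, against 9.59, 9.81 and 10.6 TPM in antennal disc. Eye disc replicate 2 was thus below every antennal disc library on TPM, though above them all on CPM. Its median TPM over the tested genes was 15.1, against 22.3 to 24.8 in the other libraries. With limma on log2(TPM + 1), the selector genes had log2 fold changes from 0.085 (ara) to 0.54 (pnr) and adjusted p values from 0.281 to 0.878, and 0 of 6 were called, nor did any have an unadjusted p under 0.05, against 8.67% of all genes called higher in eye disc. The median log2 fold change of all tested genes on this scale was -0.18, and each selector gene lay above it. Each library was then centred on its median, a step chosen after seeing the data. On that scale limma called 5 of the 6 higher in eye disc, against 11.3% of all genes. The exception was ara (0.20, limma adjusted p = 0.258). DESeq2 on the counts called all 6 higher in eye disc, against 18.7% of all genes.

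**Figure D2:**
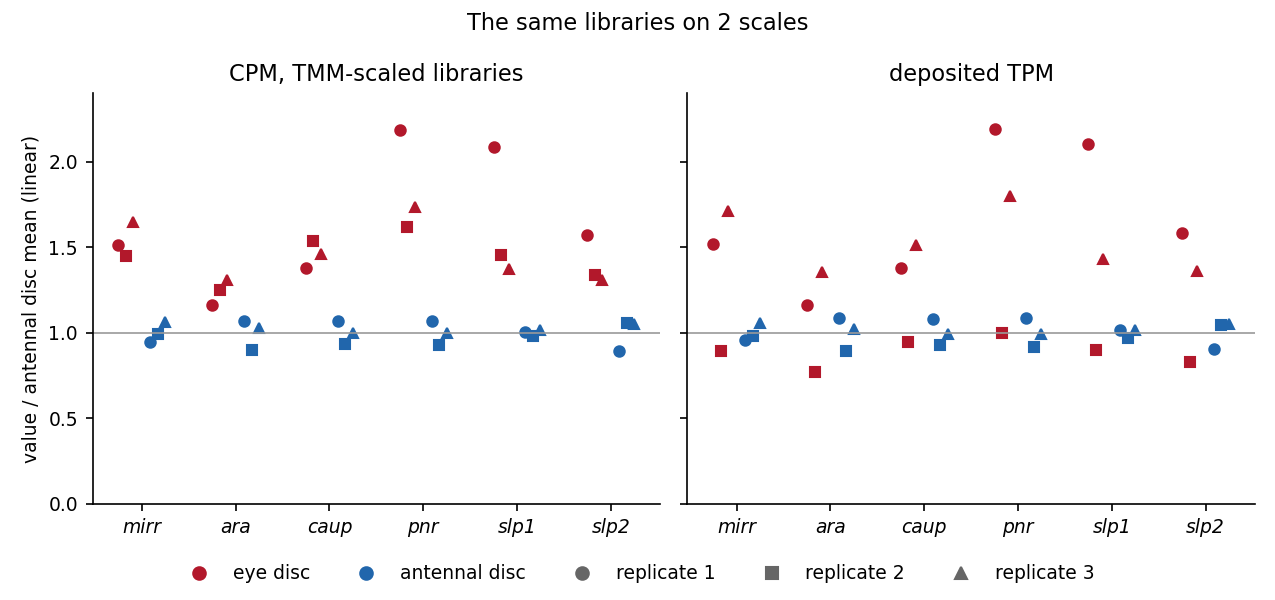
Each library's value divided by the antennal disc mean of the same gene (linear axis from 0), on CPM of scaled libraries (left) and on deposited TPM (right), with eye disc in red, antennal disc in blue and symbols for the replicate number. All eye disc points lie above the antennal disc points on CPM, whereas eye disc replicate 2 (squares) falls into or below the antennal disc range on TPM.

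Levels of different genes were compared as CPM per kb of merged exon. In eye disc, slp1 was at 48.3 ± 11.5, mirr at 28.1 ± 1.88 and slp2 at 20.5 ± 2.12 CPM per kb, and the libraries of neighbours in this order did not overlap. Below them came caup at 11.9 ± 0.647, ara at 11.7 ± 0.682 and pnr at 9.59 ± 1.56 CPM per kb, and there the ranges of caup and ara, and of ara and pnr, overlapped. In antennal disc the order was slp1 at 29.5 ± 0.456, mirr at 18.3 ± 1.11, slp2 at 14.6 ± 1.38, ara at 9.44 ± 0.837, caup at 8.17 ± 0.533 and pnr at 5.19 ± 0.371 CPM per kb (SD, n = 3 each). Only ara and caup overlapped as neighbours in that list. The highest level was thus 5.04 times the lowest in eye disc and 5.68 times in antennal disc. Divided by the whole gene span with introns, as in the deposited lengths, slp2 ranked above mirr in both tissues, pnr above ara in eye disc and caup above ara in antennal disc. The folds became 21.5 in eye disc, where ara was then the lowest, and 20.5 in antennal disc, where pnr was still the lowest. The sloppy paired genes have a single exon, of 1425 bases in slp1 and 2346 bases in slp2, while the merged exons of mirr cover 23.4% of its span.

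Ratios within a library do not depend on how libraries are scaled. The log2 ratio of ara over caup (CPM) was -0.59, -0.64 and -0.50 in eye disc, against -0.34, -0.40 and -0.30 in antennal disc. Every eye disc library had relatively less ara than any antennal disc library. The means were -0.58 ± 0.07 in eye disc and -0.35 ± 0.05 in antennal disc (SD, n = 3 each), a difference of -0.23. An exact two-sided permutation test gave p = 0.1, the smallest that 3 against 3 libraries allow. After adjustment over the 2 paralogue pairs this p was 0.2. With 3 libraries a tissue no difference could reach a p under 0.05, so the test cannot decide the question. Of the 15 pairs of selector genes, 5 had log2 ratios that did not overlap between tissues. The largest such difference was -0.56, for ara over pnr. The pairs share genes and are not independent, and all 5 included ara or pnr. How often pairs of other tested genes separate in this way was not counted, so the 5 of 15 cannot be called specific to the selector genes. The log2 ratio of slp1 over slp2 was 0.71, 0.42 and 0.37 in eye disc, against 0.47, 0.19 and 0.24 in antennal disc. Here the groups overlapped, with a difference of 0.19 (exact permutation p = 0.3, adjusted 0.3). With equal replicate numbers taken as pairs, a comparison added after seeing the data, the differences of eye disc minus antennal disc were 0.24, 0.22 and 0.12 for slp1 over slp2 and -0.25, -0.25 and -0.20 for ara over caup. Each difference had the same sign in 3 of 3 pairs, and the exact two-sided permutation p within pairs was 0.25 for each, the smallest that 3 pairs allow. In each tissue the ratio of slp1 over slp2 was highest in replicate 1, and that of ara over caup in replicate 3.

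The other genes of the dorsoventral pathway, together with the other GATA family genes, were described from 6 lists with 33 matched genes. The selector genes were left out, and all 33 are called pathway genes here. In the edgeR test 4 of them (12.1%, against 14.6% of all tested genes) passed with eye disc the higher tissue. With antennal disc the higher tissue 14 passed (42.4%, against 11.7% of all tested genes), and 15 did not pass, at a median log2 fold change of -0.20. The 4 genes higher in eye disc, srp, Bx, ush and oc, are another GATA factor gene, a pair of cofactor genes and a dorsal head gene. No gene of the Notch boundary, signal input or polarity lists was called higher in eye disc by edgeR or DESeq2, and 0 were higher at an unadjusted edgeR p under 0.05.

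Among the other GATA family genes, srp (serpent), which directs hemocyte and fat body development, was at 54.1, 55.0 and 45.8 CPM in eye disc, against 28.3, 25.8 and 24.1 CPM in antennal disc. The groups were widely apart, with a log2 fold change of 0.99 ± 0.10 (SE; edgeR adjusted p = 0.000911). This gene is also 1 of the 4 hemocyte markers, 41.7% of its span is shared with another gene, and it lies near pnr on the chromosome. Neither grn (-0.36, adjusted p = 0.250) nor GATAd (0.09, adjusted p = 0.261) was called, although, without eye disc replicate 2, grn was called on the antennal disc side (-0.59, adjusted p = 0.0418). The gene GATAe was barely detected, at 0.557 ± 0.152 CPM in eye disc, against 0.274 ± 0.0513 CPM in antennal disc (SD, n = 3 each), and was not called.

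Cofactors of pannier were represented by ush (u-shaped), whose product binds GATA factors and restrains them. It was at 68.3, 55.0 and 55.5 CPM in eye disc, against 45.0, 38.2 and 38.2 CPM in antennal disc. As for pnr, eye disc replicate 1 was the highest and the groups were apart, with a log2 fold change of 0.56 ± 0.11 (SE; edgeR adjusted p = 0.0142). The call was lost without antennal disc replicate 2 (0.51, adjusted p = 0.0652) or replicate 3 (0.52, adjusted p = 0.0671). The gene Bx (Beadex), which encodes the LIM-only protein dLMO, a binding partner of Chip, was at 33.3, 31.9 and 39.9 CPM in eye disc, against 16.1, 16.1 and 16.4 CPM in antennal disc. Its log2 fold change of 1.12 ± 0.10 (SE; edgeR adjusted p = 0.000539) was the largest among the 4 higher genes, and held without any 1 library. Chi (0.05), osa (-0.05) and the corepressor gene gro (-0.20, adjusted p = 0.125) were not called, although gro was called higher in antennal disc with the replicate block (adjusted p = 0.0228).

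Of the 8 matched genes of the Notch boundary, 4 were higher in antennal disc, against 11.7% of all tested genes. The Notch ligand gene Ser was at 109 ± 12.9 CPM in eye disc, against 191 ± 13.8 CPM in antennal disc (SD, n = 3 each), a log2 fold change of -0.81 (edgeR adjusted p = 0.00232). The other ligand gene, Dl, was at 159 ± 9.06 CPM in eye disc, against 208 ± 4.86 CPM in antennal disc (-0.39, adjusted p = 0.00465). The Pax gene eyg, needed for growth of the eye disc, differed by -1.05 (adjusted p = 0.000541), its eye disc libraries reaching at most 32.0 CPM and its antennal disc libraries at least 55.6 CPM. The receptor gene N differed by -0.31 (adjusted p = 0.0186), a call lost without antennal disc replicate 1 (-0.30, adjusted p = 0.0512) or replicate 3 (-0.28, adjusted p = 0.0724).

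The gene fng, whose product makes Notch respond differently to its ligands and which the Iroquois genes are known to repress in the eye, was at 129, 122 and 111 CPM in eye disc, against 133, 125 and 140.3 CPM in antennal disc. The groups overlapped, and the log2 fold change of -0.13 had a 95% interval of -0.32 to 0.05 (edgeR adjusted p = 0.235). Neither Su(H) (0.00) nor toe (0.20, adjusted p = 0.168) was called. The JAK/STAT ligand gene upd1 was low, at 4.19, 2.23 and 1.87 CPM in eye disc, against 8.45, 4.61 and 5.67 CPM in antennal disc. It was not called (-1.17, edgeR adjusted p = 0.0799), but was called higher in antennal disc with the replicate block (-1.21, adjusted p = 0.0261), with DESeq2 (adjusted p = 0.0274) and without eye disc replicate 1 (-1.61, adjusted p = 0.0323).

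Among the genes of the Wingless, Hedgehog and JAK/STAT inputs, 5 of 8 were higher in antennal disc, a call made for 11.7% of all tested genes. The ligand gene wg was at 32.0, 33.6 and 21.7 CPM in eye disc, against 144, 128 and 135 CPM in antennal disc, where every library stood far above those of eye disc. The log2 fold change was -2.22 ± 0.17 (SE; edgeR adjusted p = 0.000439). The ligand gene hh was at 44.1 ± 1.38 CPM in eye disc, against 85.4 ± 7.28 CPM in antennal disc (SD, n = 3 each; -0.95, adjusted p = 0.000424). The Hedgehog transducer gene smo (-0.38, adjusted p = 0.00705) and the JAK/STAT receptor gene dome (-0.43, adjusted p = 0.00641) were also higher in antennal disc. The kinase gene hop was called at -0.20 (adjusted p = 0.0314), a call lost without any 1 of the 6 libraries (adjusted p from 0.0547 to 0.0809). The Hedgehog receptor gene ptc (0.06), the factor gene ci (0.04) and Stat92E (-0.08) were not called.

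The polarity list held fz and genes of the Fat and Dachsous system, which reads dorsoventral gradients to orient cells. Of its 5 genes, 3 were called higher in antennal disc, beside 11.7% of all tested genes. These were fj (-0.47, edgeR adjusted p = 0.000814), d (-0.61, adjusted p = 0.000893) and ft (-0.47, adjusted p = 0.0121), and the call of ft was lost without antennal disc replicate 3 (-0.46, adjusted p = 0.0530). Neither ds (-0.05) nor fz (0.07) was called. In the dorsal head list, the homeobox gene oc (ocelliless) was at 53.2, 43.3 and 49.3 CPM in eye disc, against 28.0, 22.1 and 28.3 CPM in antennal disc (0.90 ± 0.12 SE, adjusted p = 0.00336). The genes en (-1.49, adjusted p = 0.00133) and inv (-2.10, adjusted p = 0.000349), engrailed-type homeobox genes of posterior compartments, were higher in antennal disc. In this list oc thus differed the same way as the selector genes, and en and inv the opposite way.

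**Figure D3:**
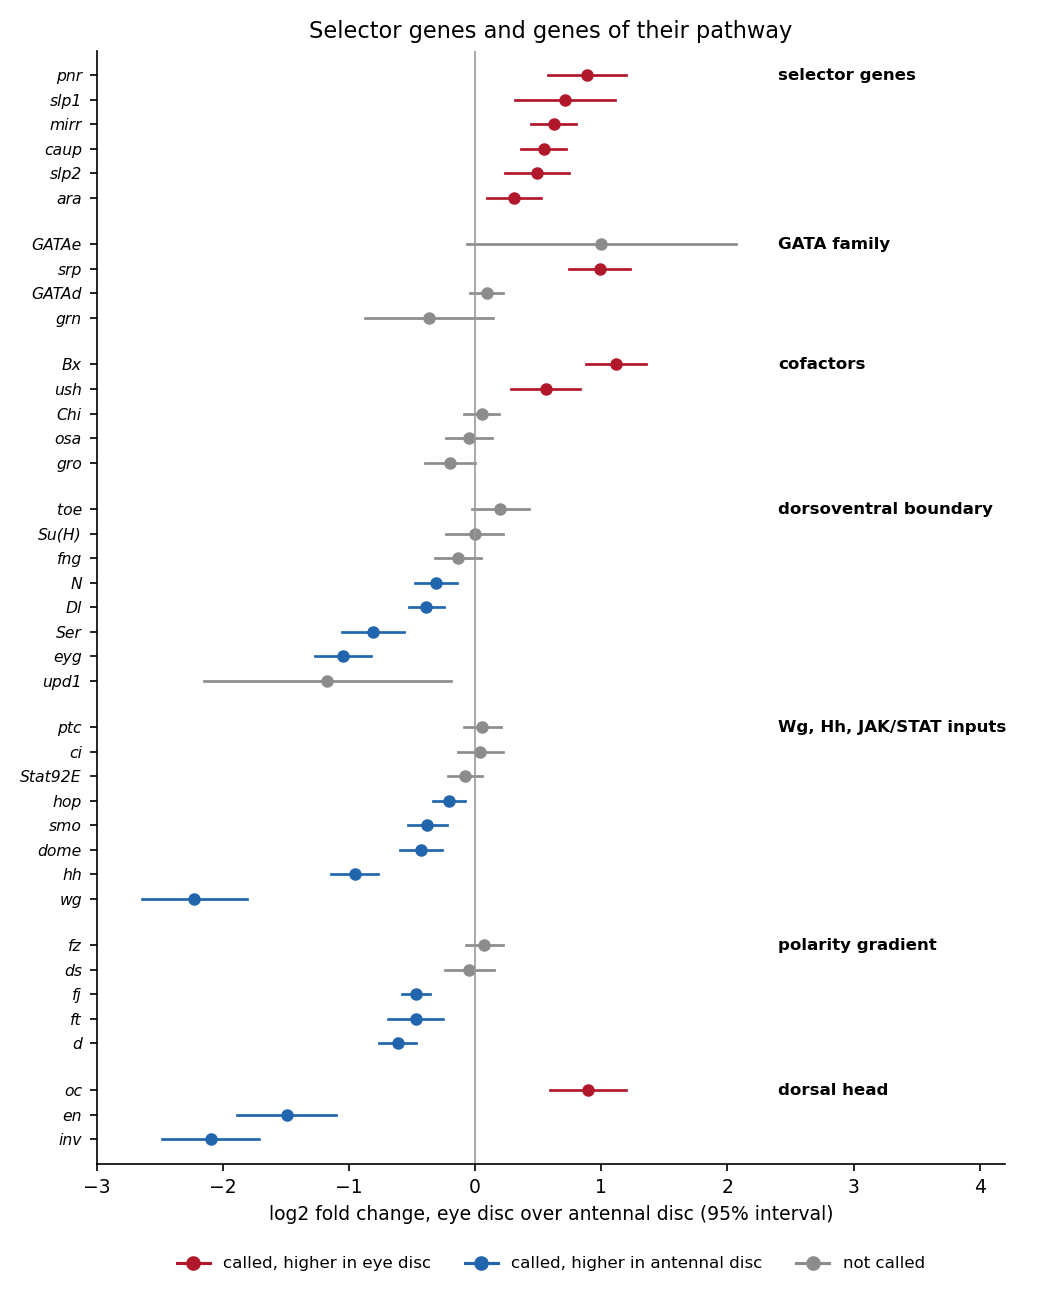
Log2 fold changes (eye disc over antennal disc, edgeR) with 95% intervals of the 6 selector genes and the 33 pathway genes (other GATA family genes included), grouped by list and coloured by call. The selector genes lie between 0.31 and 0.89, whereas 14 of the 33 pathway genes are called on the antennal disc side, as far as -2.22 for wg.

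The surroundings of the selector genes were examined within 100 kb on each side, which took in 99 other genes, 68 of them tested. Calls with eye disc higher were made for 11 (16.2%) and calls with antennal disc higher for 6 (8.82%), close to the shares over all genes, and the median log2 fold change was 0.00. The Iroquois locus held 35 tested neighbours, with 4 higher in eye disc and 3 higher in antennal disc. A pair of long noncoding RNA genes between caup and mirr was among the 4. The nearer to caup, lncRNA:CR32111, starts 6.135 kb beyond that gene and was at 41.3, 36.9 and 46.3 CPM in eye disc, against 25.0, 21.0 and 24.2 CPM in antennal disc. These libraries did not overlap between tissues, and the log2 fold change of 0.83 ± 0.11 (SE; edgeR adjusted p = 0.00284) held without any 1 library. The other, lncRNA:CR43431, was low, at 2.86, 2.04 and 2.45 CPM in eye disc, against 1.18, 1.20 and 0.882 CPM in antennal disc. Its call (1.17, adjusted p = 0.0405) was lost without any 1 of the 6 libraries (adjusted p from 0.0504 to 0.147) and with the replicate block (adjusted p = 0.0626).

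The nearest neighbours of the complex were sowah, 8.129 kb before ara, which was not called, and SmD1, a splicing factor gene 23.114 kb beyond mirr. SmD1 was called higher in antennal disc at -0.23 (edgeR adjusted p = 0.0235), a call lost without eye disc replicate 2 or 3 (adjusted p = 0.0513 and 0.0552) and without antennal disc replicate 2 or 3 (adjusted p = 0.0879 and 0.0959). In the pannier locus, 3 of 20 tested neighbours were higher in eye disc, namely srp as given above, Sap47 (0.46) and Mhcl (0.32), and Sb was higher in antennal disc (-1.96). GATAe lies 6.945 kb from pnr, between pnr and srp, and was not called, as given above. In the sloppy paired locus, 4 of 13 tested neighbours were higher in eye disc and 2 higher in antennal disc.

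Reph, which lies before slp1, was at 50.9, 40.2 and 65.8 CPM in eye disc, against 27.9, 22.1 and 21.4 CPM in antennal disc (1.14, edgeR adjusted p = 0.00959), the groups standing apart. The zinc finger gene bowl on the same side differed by -0.58 (adjusted p = 0.000826), in the direction opposite to slp1 and slp2. Of the 17 called neighbours, 8 kept their call without any 1 library: lncRNA:CR32111, CG4069 (-0.47), Klc (0.49), Sap47, srp, bowl, Reph and Cep97 (0.47). The calls of the other 9, which besides lncRNA:CR43431, SmD1, Mhcl and Sb were CG10654, eIF2beta, Shaw, TTLL4B and fred, were lost without at least 1 library, where their highest adjusted p lay between 0.0576 (Sb) and 0.147 (lncRNA:CR43431).

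**Figure D4:**
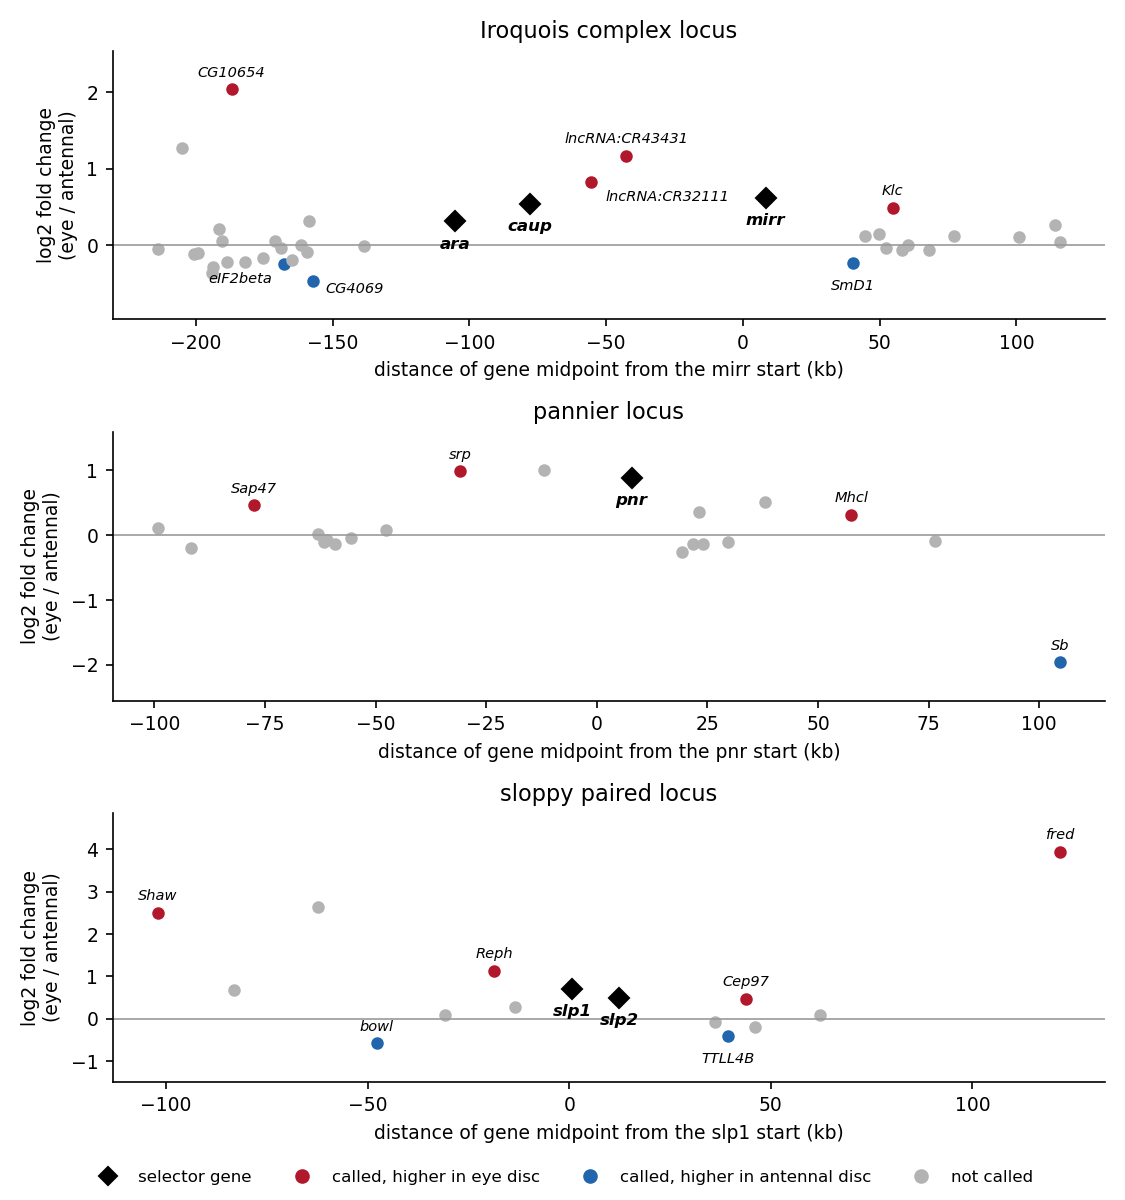
Log2 fold change (eye disc over antennal disc, edgeR) of each tested gene within 100 kb of the selector genes, against the distance of its midpoint from the start of mirr, pnr or slp1, with 1 panel per locus and colours for the call. Most neighbours are uncalled and near 0, and genes called in either direction lie among the selector genes' neighbours in each locus.

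Likeness of pattern was measured by Pearson correlation of log2 CPM across the 6 libraries, as a description, since all of these libraries carry the tissue difference. The highest values for mirr were with dpr7 (0.999) and rho-5 (0.999). For ara they were with CG30148 (0.992) and Sara (0.985), for caup with CG5921 (0.996) and cv-c (0.994), and for pnr with dos (0.998) and CG18764 (0.998). For slp1 they were with the proneural gene ato (0.997) and CG4250 (0.989), and for slp2 with Mdr65 (0.995) and CG8159 (0.991). Of these genes, CG30148, Sara and CG8159 were not called between the tissues over all 6 libraries (edgeR adjusted p = 0.177, 0.252 and 0.221). A correlation over 0.95 was reached by 753 other genes for mirr (7.61%), 408 for pnr, 402 for caup, 83 for slp1, 70 for slp2 and 50 for ara (0.505%). Among the selector genes themselves, pnr and slp1 were the most alike (0.963) and ara and slp2 the least (0.617).

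A separate deposited file per library lists genes of 39 genomic regions with their TPM, and mirr is the only selector gene in it. Its region spans 105.4 kb (3L, 12647310 to 12752664) and holds 11 genes. The values there equal those of the expression tables and so add no measurement of mirr.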

How the data were processed

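Polyadenylated RNA was measured in 3 eye disc and 3 antennal disc libraries, grouped and numbered by their titles. The deposited tables hold, per the file headers, estimated counts and TPM for 17753 genes, in the layout of kallisto. FastQC, kallisto, bedtools and dm6 are named in the submitters' processing notes, whereas their versions, the annotation release and the strand setting were not given in the sources used here. Deposited gene lengths, by which the authors' TPM were divided, equal the whole span with introns for 99.3% of genes with several exons. Spans of 47.6% of the 17622 genes matched to an Ensembl dm6 annotation overlap another gene, so that counts can be shared between them. None of the 6 selector genes does. Genome sequence was not used here.

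Estimated counts were rounded, filtered with filterByExpr, scaled by TMM and tested in R 4.3.3 by the robust quasi-likelihood test of edgeR 4.0.16, with tissue as the only term. P-values were Benjamini-Hochberg adjusted over 9901 genes, with calls under 0.05. CPM refer to scaled libraries. The SE is the absolute log2 fold change divided by the square root of F. Ratios were tested by an exact permutation test (scipy 1.17.1). DESeq2 1.42.0, limma 3.58.1 on log2(TPM + 1) and log2(TPM + 0.1), other filters and size factors, a replicate block and leaving out each library were alternatives.

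Same-numbered eye and antennal libraries deviated together from their group means (correlations across genes 0.415, 0.308 and 0.242, each over 0.1). Libraries with different numbers gave correlations from -0.430 to 0.0819. Deviations from a mean of 3 libraries offset each other, so these correlations are not independent, and no test of the pairing was made. Equal numbers were taken as pairs only in the replicate block and in the ratio comparison within pairs. This pairing comes from the data, not the labels. The main fits, with their SE, intervals and adjusted p values, had no term for it. With the block, edgeR adjusted p values were 0.00177 for mirr, 0.0114 for caup and 0.00237 for pnr. They were 0.0266 for slp1, 0.0414 for slp2 and 0.0572 for ara. No libraries were copies of each other. The labels do not say what the biological replicates shared, and p-values measure the spread between these libraries only.

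The selector genes, gene lists, markers and tests were chosen with earlier results of these data known. Named genes were the selector genes, called list genes with up to 4 uncalled ones per list, the 2 genes most like each selector gene, and called or nearest neighbours. The gene L was listed but not matched to an identifier and was not analysed here. Dl and d appear in the annotation as Delta and dachs.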

Additional observations from a re-analysis of the deposited data

How the results depend on the processing

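The direction of every selector gene was the same under all alternatives run. The call of ara was lost with DESeq2 size factors (log2 fold change 0.31), without a filter on low counts (0.29), with the replicate block (0.31) and on median-centred log2(TPM + 1) (0.20). The blocked fit also changed the calls of gro, upd1, fred, lncRNA:CR43431 and the hemocyte marker Hml, and of no other named gene. With limma on log2(TPM + 1), 0 of the 6 selector genes were called, with values of 0.38 for mirr, 0.085 for ara, 0.29 for caup, 0.54 for pnr, 0.48 for slp1 and 0.28 for slp2. On log2(TPM + 0.1), 0 were called, at 0.40, 0.097, 0.33, 0.65, 0.48 and 0.28 for the same genes in that order. Over all genes these scales called 858 and 909 higher in eye disc and 344 and 339 higher in antennal disc. Of the pathway genes they called 0 and 0 higher in eye disc and 7 and 8 higher in antennal disc. The median log2 fold change of all genes was -0.18 and -0.20 there. Both scales called the muscle marker Act57B higher in antennal disc (limma adjusted p = 0.000118 and 0.000101). Of the markers called by edgeR, they did not call ato, nrv2, srp, NimC1 or Pxn.

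Leaving out 1 library at a time gave log2 fold changes of 0.23 to 0.35 for ara, 0.49 to 0.58 for caup, 0.56 to 0.67 for mirr, 0.74 to 0.98 for pnr, 0.49 to 0.81 for slp1 and 0.40 to 0.53 for slp2. It called 3 to 6 selector genes (3 without antennal disc replicate 3), 3 to 4 pathway genes higher in eye disc and 11 to 14 higher in antennal disc. Over all genes it called 919 to 1462 higher in eye disc and 520 to 1117 higher in antennal disc. The lowest of these were 919 without antennal disc replicate 2 and 520 without antennal disc replicate 3. The difference of the log2 ratio of ara over caup then ranged from -0.27 to -0.20, and that of slp1 over slp2 from 0.09 to 0.28. The ratio of the highest to the lowest selector gene per kb ranged from 4.79 to 5.28 in eye disc and 5.53 to 5.88 in antennal disc. It was 21.5 and 20.5 by gene span, and 24.8 and 23.1 on deposited TPM. Choosing by Spearman correlation gave 0 of the same 12 most alike genes, but 8 of the 12 themselves had a Spearman correlation of 1, which 29 to 190 genes shared per selector gene, so that choice is among ties. A window of 50 kb gave 7 neighbours higher in eye disc, against 11 at 100 kb.

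The cause of these changes was not tested. The 3 libraries a tissue limit the precision, with a 95% interval of 0.10 to 0.52 for the log2 fold change of ara.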
